A study of Bombyx mori with 12 samples.

Results

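DIRS and Penelope elements are the minor retroelement classes of the silkworm transposon catalogue, and 10 of the 1716 catalogued entries carry one of these class names, 7 as DIRS and 3 as Penelope. The entries were chosen by the class written in each row name. This rule used no measured value, but earlier results of these data were known when the choice was made. They were followed in BmN4, an ovary-derived cell line of the silkworm Bombyx mori, by 2 assays of 6 libraries, 2 per group. Poly-A RNA was sequenced from cells given siRNA against Siwi, against Maelstrom (Mael) or, as the control, against luciferase (Luc), and the small RNA that came down with Flag-Siwi was sequenced from cells given siRNA against Ago3, Mael or luciferase. All 12 libraries came from cells nucleofected with 500 pmol of siRNA in a repeated transfection and collected after 10 days at 26 °C. These were knockdowns and not gene deletions, and how far each target fell was not analysed here, because both tables list transposons only and 0 of 8 germ cell and piRNA pathway gene names looked up were among the rows, so that the ovarian identity of the cells was not checked either. In such bulk RNA, fewer cells of a type and less RNA per cell cannot be told apart.

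PIWI-interacting RNAs, or piRNAs, lead PIWI proteins to the transcripts of transposons by base pairing. The PIWI proteins of the silkworm, Siwi and Ago3, cleave complementary transcripts in turn and so supply each other with new piRNAs, a loop called the ping-pong cycle, and Mael is a conserved factor of the same pathway. DIRS elements are retrotransposons that encode a tyrosine recombinase in place of the integrase of LTR retrotransposons. Penelope-like elements encode a reverse transcriptase that is usually joined to a GIY-YIG endonuclease, and the founding element is known from hybrid dysgenesis in Drosophila virilis. In both classes, as in other retroelements, RNA is the intermediate of transposition, so the RNA level and the Siwi-bound small RNA of the same entry are the natural pair of readouts.

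RNA values are RPKM (reads scaled to library size and to the length of the entry) and small RNA values RPM (reads scaled to library size only), as the authors deposited them. The steps of the values gave the authors' library totals, 32487082 to 45155711 reads in RNA and 1763511 to 4806161 reads in small RNA, and the length in base pairs of each entry with RNA reads. A level is given with its SD over 2 libraries. A log2 change is given with its standard error from limma, fitted to the whole table of log2(value + 1), a scale that understates the change of low entries. An adjusted p (Benjamini-Hochberg, over all entries tested in the comparison) under 0.05 is called a change. Whether the libraries of compared groups overlap is given as a description, and its share over all entries was not counted. The labels do not state whether both libraries of a group were grown separately, and the p-values then describe only the spread among libraries, which may be technical. The tables do not say how reads that match several entries were handled.

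The entries fall into 3 sets by what was detected. Among the DIRS entries, BmTE_RM1-274 (2799 bp), BmTE_RM1-288 (2578 bp) and BmTE_RM1-419 (723 bp) had both RNA and abundant Siwi-bound small RNA. BmTE_RM6-1297 (1894 bp), BmTE_RM6-1298 (841 bp) and BmTE_RM6-2105 (1574 bp) had about as much RNA and little small RNA. DIRS-1_BM, for which the shortest length that gives whole reads is 4868 bp, had 3 RNA reads in all 6 libraries together and 21 small RNA reads. Of the Penelope entries, BmTE_RM5-1758 (815 bp) had both kinds of RNA. BmTE_RM4-348 had no RNA read in any library and 1 small RNA read in each of the Ago3 knockdown libraries, at 0.383 and 0.459 RPM, and BmTE_RM6-416 had no read in any of the 12 libraries. For an entry at 0, a floor of 3 reads corresponds to 0.624 to 1.70 RPM depending on the small RNA library, so the values of BmTE_RM4-348 do not differ from 0 at this depth. Such floors and intervals cover counting error only, because PCR copies of 1 molecule cannot be told from separate molecules here.

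In control cells, the RNA levels of the 6 transcribed DIRS entries lay close together while their small RNA levels spread widely. Per length, control RNA was 8.53 RPKM ± 2.11 (SD, n = 2) for BmTE_RM1-274, 8.27 ± 2.51 for BmTE_RM1-288, 7.15 ± 1.70 for BmTE_RM6-2105, 6.59 ± 1.32 for BmTE_RM6-1297, 6.39 ± 0.262 for BmTE_RM1-419 and 6.32 ± 1.36 for BmTE_RM6-1298, and neighbours in this order do not differ beyond their spread. The transcribed Penelope entry, BmTE_RM5-1758, was lower, at 2.78 ± 1.27 RPKM. Divided by length, control small RNA was 950 RPM per kb ± 172 for BmTE_RM5-1758, the highest of the 10 entries. It was 128 ± 1.70 RPM per kb for BmTE_RM1-288, 127 ± 7.87 for BmTE_RM1-274 and 120 ± 20.7 for BmTE_RM1-419, which do not differ beyond their spread. It was 8.98 ± 2.56 RPM per kb for BmTE_RM6-1298, 1.72 ± 0.105 for BmTE_RM6-1297 and 0.397 ± 0.561 for BmTE_RM6-2105.

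**Figure D1:**
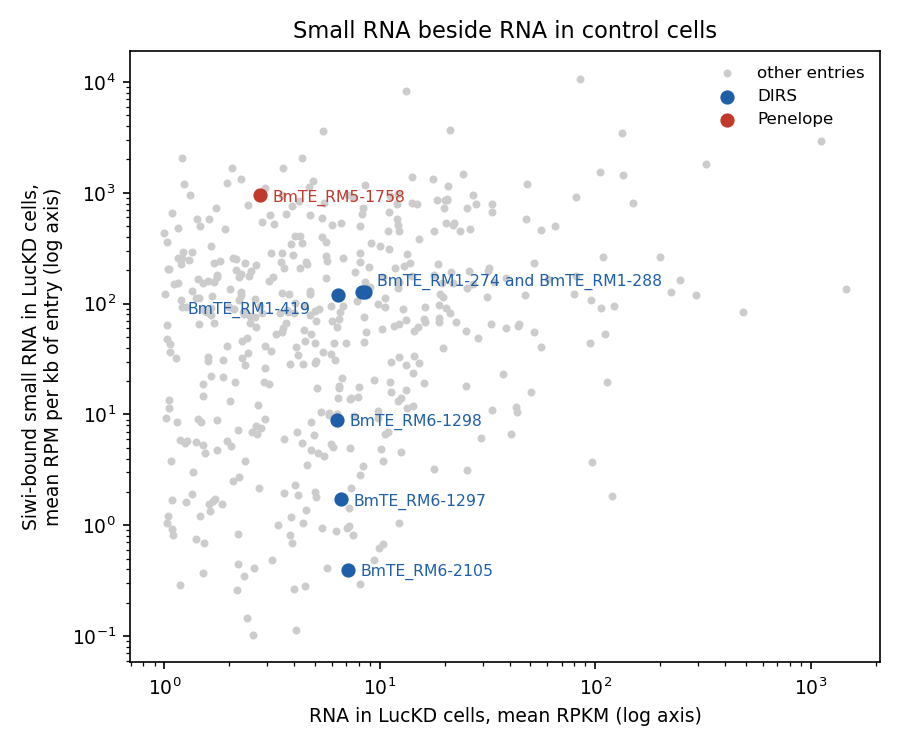
Siwi-bound small RNA per kb of entry against RNA in LucKD cells, each the mean of 2 libraries, on log axes; grey points are the other entries with at least 1 RPKM and any small RNA. The 6 DIRS points (blue) stand nearly in a column, between 6.32 and 8.53 RPKM, but run from 0.397 to 128 RPM per kb, and the Penelope entry (red) has less RNA and more small RNA than any of them.

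Small RNA relative to RNA was therefore very uneven among these entries. The level of small RNA per kb divided by the RNA level was 341 for BmTE_RM5-1758, 20th among the 466 entries with a control mean of at least 1 RPKM. It was 18.7 for BmTE_RM1-419, 15.5 for BmTE_RM1-288 and 14.9 for BmTE_RM1-274, near the median of 9.81 over those entries. It was 1.42 for BmTE_RM6-1298, 0.261 for BmTE_RM6-1297 and 0.0554 for BmTE_RM6-2105, all below the first quartile of 1.49. The units of the 2 assays differ, so these ratios rank entries and do not count molecules.

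The values of BmTE_RM1-288 followed those of BmTE_RM1-274 in every library. The RNA level of BmTE_RM1-288 was 0.891 to 1.01 times that of BmTE_RM1-274 over the 6 RNA libraries, and its small RNA per kb 0.890 to 1.05 times over the 6 small RNA libraries. Whether the pair shares reads was not analysed here, and they are not counted as independent evidence of each other. BmTE_RM1-419 did not follow them as closely. Its small RNA per kb was 1.84 and 1.87 times that of BmTE_RM1-274 in Ago3 knockdown libraries and 1.36 and 1.24 times in Mael knockdown libraries, against 1.01 and 0.865 times in control libraries.

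In RNA, the 6 transcribed DIRS entries and BmTE_RM5-1758 had a mean of at least 1 RPKM and were tested, each with a mean above that level in all 3 groups. BmTE_RM5-1758 was the only one of these 7 to pass the test after Siwi knockdown, in a comparison in which 27.3% of 490 tested entries passed, 24.3% as higher and 3.06% as lower (28.4% by edgeR). With trimmed-mean scaling 89 entries passed as higher and 39 as lower, in place of 119 and 15. Its RNA reached 7.70 and 8.26 RPKM in Siwi knockdown libraries (204 and 273 reads), against 1.89 and 3.68 RPKM in control libraries (68 and 99 reads). Both knockdown libraries lay above both controls, and the controls differed more from each other than the knockdown libraries did. The log2 change was 1.29 ± 0.26 (95% interval 0.76 to 1.81, limma, adjusted p = 0.000233), and the means differed 2.87-fold. The rise passed in every fit that left out 1 library (log2 change 0.94 to 1.64), but not when all entries with any read were tested (limma, adjusted p = 0.0781).

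**Figure D2:**
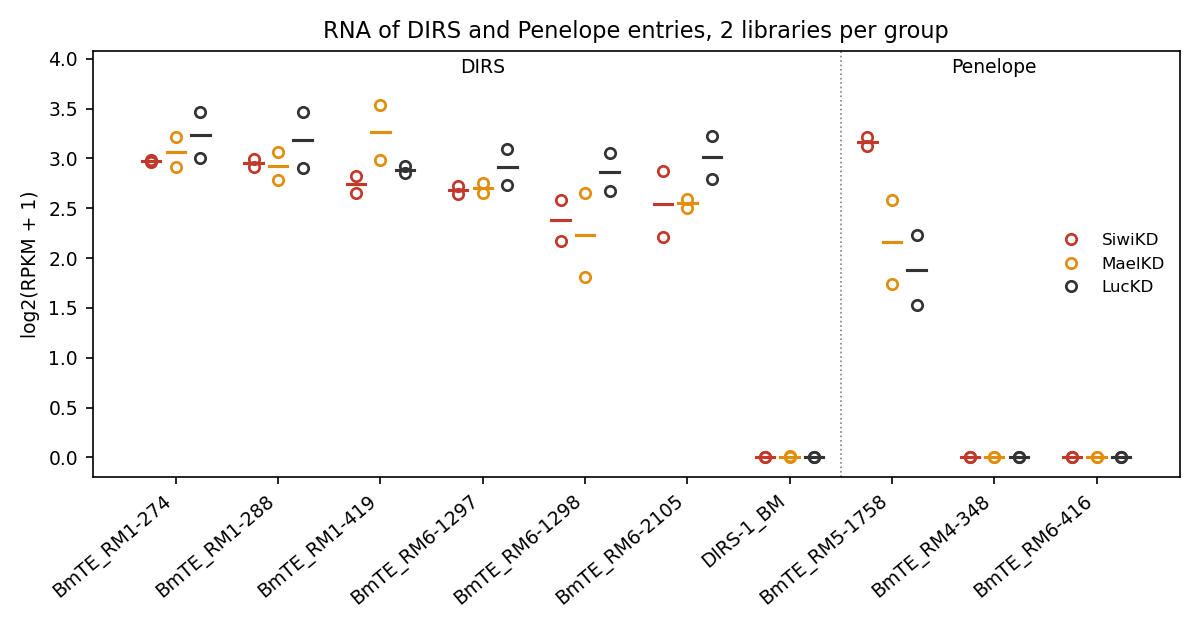
RNA level, log2(RPKM + 1), of each DIRS and Penelope entry in the 2 libraries of SiwiKD, MaelKD and LucKD cells; circles are libraries and bars are means. SiwiKD circles of BmTE_RM5-1758, at 7.70 and 8.26 RPKM, lie above both LucKD circles, at 1.89 and 3.68 RPKM, whereas the DIRS entries stay within 2.50 and 10.6 RPKM and DIRS-1_BM and the other Penelope entries lie at or near 0.

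None of the 6 tested DIRS entries passed the test after Siwi knockdown (limma). None had an unadjusted limma p under 0.05 on the values as deposited, beside 179 of 490 entries. By edgeR on the recovered reads 0 passed after adjustment and 2 had an unadjusted p under 0.05, beside 188 of 490 entries. With trimmed-mean scaling 5 of the 6 had an unadjusted limma p under 0.05, beside 189 of 484 entries. The estimates were then -0.64 to -0.32, and 1 passed after adjustment. All 6 estimates were below 0, from -0.48 to -0.15 with a median of -0.25, beside a median of 0.15 over all 490 entries. BmTE_RM1-274 had 6.92 and 6.82 RPKM after Siwi knockdown and 7.03 and 10.0 RPKM in control cells (95% interval of the log2 change -0.69 to 0.17). BmTE_RM1-288 had 6.98 and 6.52 RPKM after Siwi knockdown and 6.50 and 10.1 RPKM in control cells. For both, 1 control library stood high and the other lay near the knockdown values, overlapping them for BmTE_RM1-288 and narrowly above them for BmTE_RM1-274, and without that high library, LucKD replicate 2, the estimates were -0.03 and 0.05.

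The shorter BmTE_RM1-419 had 6.09 and 5.28 RPKM after Siwi knockdown and 6.57 and 6.20 RPKM in control cells. BmTE_RM6-1297 had 5.59 and 5.23 RPKM after Siwi knockdown and 5.65 and 7.52 RPKM in control cells, and BmTE_RM6-1298 had 4.98 and 3.52 RPKM against 5.36 and 7.28 RPKM. In these 3 entries, as in BmTE_RM1-274, both Siwi knockdown libraries lay below both controls, by margins that did not pass the test. The share of all tested entries separated in this way was not counted. BmTE_RM6-2105 had 6.34 and 3.63 RPKM after Siwi knockdown and 5.95 and 8.36 RPKM in control cells, with overlapping groups (95% interval of the log2 change -0.94 to 0.00). It passed as lower with trimmed-mean scaling (log2 change -0.63), which moved the median of all entries to -0.01, and without SiwiKD replicate 1 (-0.80). The intervals of the 6 DIRS entries reach no higher than 0.29, so a rise of 1 on the log2 scale lies outside each of them.

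After Mael knockdown none of the 7 entries passed the test in RNA, where 11.0% of 490 tested entries passed, 8.37% as higher and 2.65% as lower, or 12.4% by edgeR. By limma 1 of the 7 had an unadjusted p under 0.05, beside 100 of 490 entries. With edgeR on the recovered reads 0 passed after adjustment and 2 had an unadjusted p under 0.05, beside 106 of 490 entries. The Penelope entry BmTE_RM5-1758 had 5.00 and 2.33 RPKM after Mael knockdown and 1.89 and 3.68 RPKM in control cells. The groups overlapped, and the log2 change of 0.28 ± 0.26 (adjusted p = 0.628) turned to -0.07 without LucKD replicate 1 and to -0.14 without MaelKD replicate 1. BmTE_RM6-1298 had the lowest unadjusted p, with 2.50 and 5.27 RPKM after Mael knockdown and 5.36 and 7.28 RPKM in control cells (log2 change -0.63 ± 0.25, limma, adjusted p = 0.113). Both knockdown libraries lay below both controls, the upper one narrowly, and the entry passed as lower in the fits without SiwiKD replicate 1 or without SiwiKD replicate 2, which share the estimate of the spread.

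BmTE_RM1-419 had 10.6 and 6.93 RPKM after Mael knockdown and 6.57 and 6.20 RPKM in control cells (log2 change 0.37 ± 0.21, adjusted p = 0.362), and BmTE_RM6-2105 had 4.69 and 5.04 RPKM and 5.95 and 8.36 RPKM (-0.46 ± 0.23, adjusted p = 0.259). In BmTE_RM1-419 both Mael knockdown libraries were above both controls and in BmTE_RM6-2105 both were below. BmTE_RM1-274 had 8.27 and 6.54 RPKM after Mael knockdown and 7.03 and 10.0 RPKM in control cells, BmTE_RM1-288 had 7.37 and 5.88 RPKM against 6.50 and 10.1 RPKM, and BmTE_RM6-1297 had 5.76 and 5.28 RPKM against 5.65 and 7.52 RPKM. In these 3 entries the groups overlapped. How many of all tested entries were separated or overlapped after Mael knockdown was not counted.

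Set directly against each other, the knockdowns left BmTE_RM5-1758 lower after Mael than after Siwi knockdown, with 5.00 and 2.33 RPKM against 7.70 and 8.26 RPKM (log2 difference -1.01 ± 0.26, limma, adjusted p = 0.00507). It was the only one of the 7 entries to pass, beside 20.4% of 490 entries, 1.63% as higher and 18.8% as lower (22.7% by edgeR). The groups did not overlap, but the difference did not pass without MaelKD replicate 2 (-0.58, adjusted p = 0.321), with trimmed-mean scaling (-0.84, adjusted p = 0.0666) or with all entries tested (adjusted p = 0.203). Of the DIRS entries BmTE_RM1-419 came nearest to passing, with 10.6 and 6.93 RPKM after Mael knockdown and 6.09 and 5.28 RPKM after Siwi knockdown (log2 difference 0.52 ± 0.21, adjusted p = 0.0900). The estimates of the other 5 DIRS entries lay between -0.15 and 0.09.

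Summed over the 7 DIRS entries, RNA made up 0.00624% ± 0.000584 of all reads after Siwi knockdown (SD, n = 2), 0.00655% ± 0.000664 after Mael knockdown and 0.00789% ± 0.00185 in control cells. The 3 Penelope entries, in effect BmTE_RM5-1758 alone, held 0.000650% ± 3.18e-05, 0.000299% ± 0.000154 and 0.000227% ± 0.000103 in the same groups. With 2 libraries against 2, an exact permutation test of such sums cannot give a two-sided p below 0.333.

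In Siwi-bound small RNA, 8 of the 10 entries had a mean of at least 1 RPM and were tested. BmTE_RM6-2105 and DIRS-1_BM were just inside this limit, with means of 1.20 and 1.42 RPM, and passed it through Ago3 knockdown values (BmTE_RM6-2105) or Ago3 and Mael knockdown values (DIRS-1_BM), their other group means being under 1 RPM, while BmTE_RM4-348 was outside it at 0.140 RPM. The libraries held 4681, 4297 and 1451 small RNA reads of BmTE_RM1-274, BmTE_RM1-288 and BmTE_RM1-419 and 10852 of BmTE_RM5-1758. BmTE_RM6-1298 had 172 reads and BmTE_RM6-1297 had 59, so counting alone limits what can be seen of them, and more so of BmTE_RM6-2105 with 20.

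After Ago3 knockdown the 3 DIRS entries rich in small RNA had less of it, BmTE_RM1-274 and BmTE_RM1-288 by the larger margin. BmTE_RM1-274 had 112 and 96.9 RPM in Ago3 knockdown libraries, against 371 and 340.2 RPM in control libraries. BmTE_RM1-288 had 94.2 and 79.4 RPM after Ago3 knockdown and 334 and 328 RPM in control cells. In both entries the knockdown libraries lay far below the controls, with means 3.41-fold and 3.81-fold lower than in control cells. The log2 changes were -1.76 ± 0.10 (limma, adjusted p = 3.34e-18) and -1.92 ± 0.10 (adjusted p = 4.33e-19), in a comparison in which 57.5% of 1004 tested entries passed, 40.6% as lower and 16.8% as higher (60.4% by edgeR). With trimmed-mean scaling 245 passed as higher and 314 as lower, in place of 169 and 408. The median log2 change over those 1004 entries was -0.28, and the first quartile -0.85.

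BmTE_RM1-419 fell less, to 53.2 and 46.8 RPM after Ago3 knockdown, against 97.2 and 76.0 RPM in control cells (log2 change -0.77 ± 0.14, limma, adjusted p = 1.05e-05). The Penelope entry fell too: BmTE_RM5-1758 had 502 and 541 RPM after Ago3 knockdown and 873 and 675 RPM in control cells (-0.56 ± 0.09, adjusted p = 2.59e-06). In neither entry did the groups overlap. With trimmed-mean scaling, which moved the median of all entries to -0.03, these changes were smaller, -0.51 and -0.29, and still passed the test. The change of BmTE_RM5-1758 was -0.37 without LucKD replicate 1, its higher control.

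**Figure D3:**
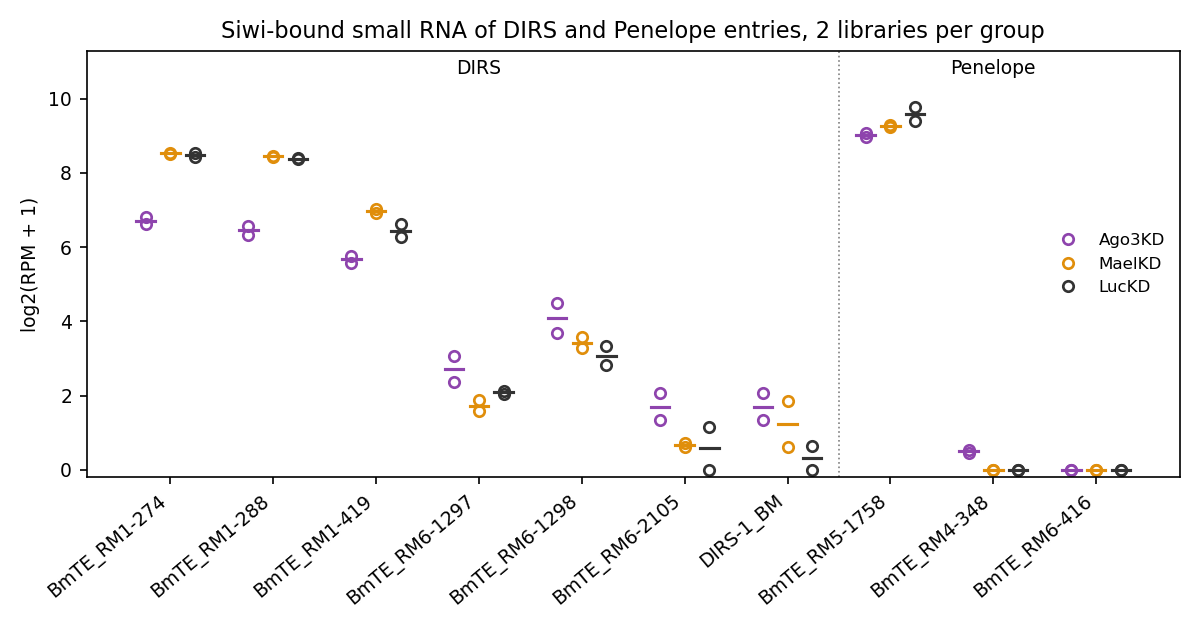
Siwi-bound small RNA, log2(RPM + 1), of each DIRS and Penelope entry in the 2 libraries of Ago3KD, MaelKD and LucKD cells; circles are libraries and bars are means. For BmTE_RM1-274 and BmTE_RM1-288 the Ago3KD circles lie between 79.4 and 112 RPM, below all MaelKD and LucKD circles (328 to 372 RPM). For the BmTE_RM6 DIRS entries and DIRS-1_BM the Ago3KD mean is the highest of the 3 groups. Of these, BmTE_RM6-2105 and DIRS-1_BM reached a mean of 1 RPM only through knockdown values, so their high Ago3KD means are a description. Among the others only BmTE_RM6-1298 passed the test against LucKD, a call that did not hold in every fit.

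The DIRS entries poor in small RNA pointed the other way after Ago3 knockdown. BmTE_RM6-1298 rose to 11.9 and 21.6 RPM (31 and 47 reads), against 6.03 and 9.07 RPM in control cells (29 and 16 reads). The log2 change was 1.02 ± 0.31 (limma, adjusted p = 0.00448), and the call was lost without Ago3KD replicate 2 (0.61) or without LucKD replicate 1 (0.76). BmTE_RM6-1297 had 4.21 and 7.35 RPM after Ago3 knockdown (11 and 16 reads) and 3.12 and 3.40 RPM in control cells (15 and 6 reads), a log2 change of 0.63 ± 0.40 that did not pass (adjusted p = 0.171). In both entries Ago3KD replicate 2 was the highest library, and no Ago3 knockdown library fell below a control.

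The rarest entries add little. DIRS-1_BM had 1.53 and 3.21 RPM after Ago3 knockdown (4 and 7 reads) and 0 and 0.567 RPM in control cells (0 and 1 reads). These are 11 reads against 1, a ratio of 15.1 in RPM with a 95% exact counting interval of 2.19 to 649. Because the entry reached the limit of 1 RPM only through its knockdown values, its log2 change of 1.38 ± 0.51 is given as a description and is not counted as a rise. BmTE_RM6-2105 had the same values after Ago3 knockdown, 1.53 and 3.21 RPM, and 1.25 and 0 RPM in control cells. It too reached the limit only through Ago3 knockdown, and its log2 change of 1.12 ± 0.51 is likewise a description. Its 11 reads against 6 give a ratio of 2.51 with a 95% exact counting interval of 0.852 to 8.28.

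Of the 5 DIRS entries with a mean of at least 1 RPM in every group, 3 were lower after Ago3 knockdown, 1 was higher and 1 did not pass, beside 40.6% lower and 16.8% higher over all 1004 entries. The 3 include BmTE_RM1-274 and BmTE_RM1-288, which are not independent evidence of each other. By sum, the 7 DIRS entries held 0.0268% ± 0.00140 of the small RNA after Ago3 knockdown (SD, n = 2), 0.0855% ± 0.000897 after Mael knockdown and 0.0785% ± 0.00395 in control cells. These sums follow BmTE_RM1-274 and BmTE_RM1-288, which may share reads. Without BmTE_RM1-274 the shares were 0.0164%, 0.0486% and 0.0429%. Penelope entries held 0.0522% ± 0.00274, 0.0610% ± 0.00139 and 0.0774% ± 0.0140 in the same groups.

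After Mael knockdown, 2 of the 6 entries with a mean of at least 1 RPM in every group passed the test in small RNA, where 56.2% of 1004 entries passed, 44.4% as lower and 11.8% as higher (57.2% by edgeR). With trimmed-mean scaling 240 passed as higher and 224 as lower, in place of 118 and 446. BmTE_RM1-419 rose to 129 and 119 RPM, against 97.2 and 76.0 RPM in control cells (log2 change 0.52 ± 0.14, limma, adjusted p = 0.00168). Both Mael knockdown libraries were above both controls, and the call was lost without LucKD replicate 2 (0.35, adjusted p = 0.0611). BmTE_RM5-1758 fell to 619 and 599.7 RPM, against 873 and 675 RPM in control cells (-0.33 ± 0.09, adjusted p = 0.00264), a call that was lost without LucKD replicate 1 (-0.15).

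Both calls have to be read against the shift of the whole table, whose median log2 change after Mael knockdown was -0.44, or 0.01 with trimmed-mean scaling. On that scaling the change of BmTE_RM5-1758 turned to 0.18 and did not pass (adjusted p = 0.150), and that of BmTE_RM1-419 became 1.03. BmTE_RM1-274 had 366 and 372 RPM after Mael knockdown and 371 and 340.2 RPM in control cells, and BmTE_RM1-288 had 351 and 345 RPM and 334 and 328 RPM. Their log2 changes of 0.05 ± 0.10 and 0.07 ± 0.10 did not pass (95% intervals -0.15 to 0.26 and -0.14 to 0.28), while with trimmed-mean scaling both passed as higher, at 0.57 and 0.58. For BmTE_RM1-288 both Mael knockdown libraries lay above both controls, and for BmTE_RM1-274 the groups overlapped.

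The other DIRS entries did not pass after Mael knockdown. BmTE_RM6-1298 had 10.9 and 8.68 RPM and 6.03 and 9.07 RPM in control cells (0.35 ± 0.31), and passed only with trimmed-mean scaling (0.81). BmTE_RM6-1297 had 1.98 and 2.71 RPM after Mael knockdown and 3.12 and 3.40 RPM in control cells, and BmTE_RM6-2105 had 0.661 and 0.543 RPM and 1.25 and 0 RPM, from 3 reads against 6. DIRS-1_BM had 2.65 and 0.543 RPM after Mael knockdown (8 and 1 reads) and 0 and 0.567 RPM in control cells. Its 9 reads against 1 give a ratio of 12.1 with a 95% exact counting interval of 1.68 to 533, and the log2 change of 0.92 ± 0.51 is a description for the reason given above.

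**Figure D4:**
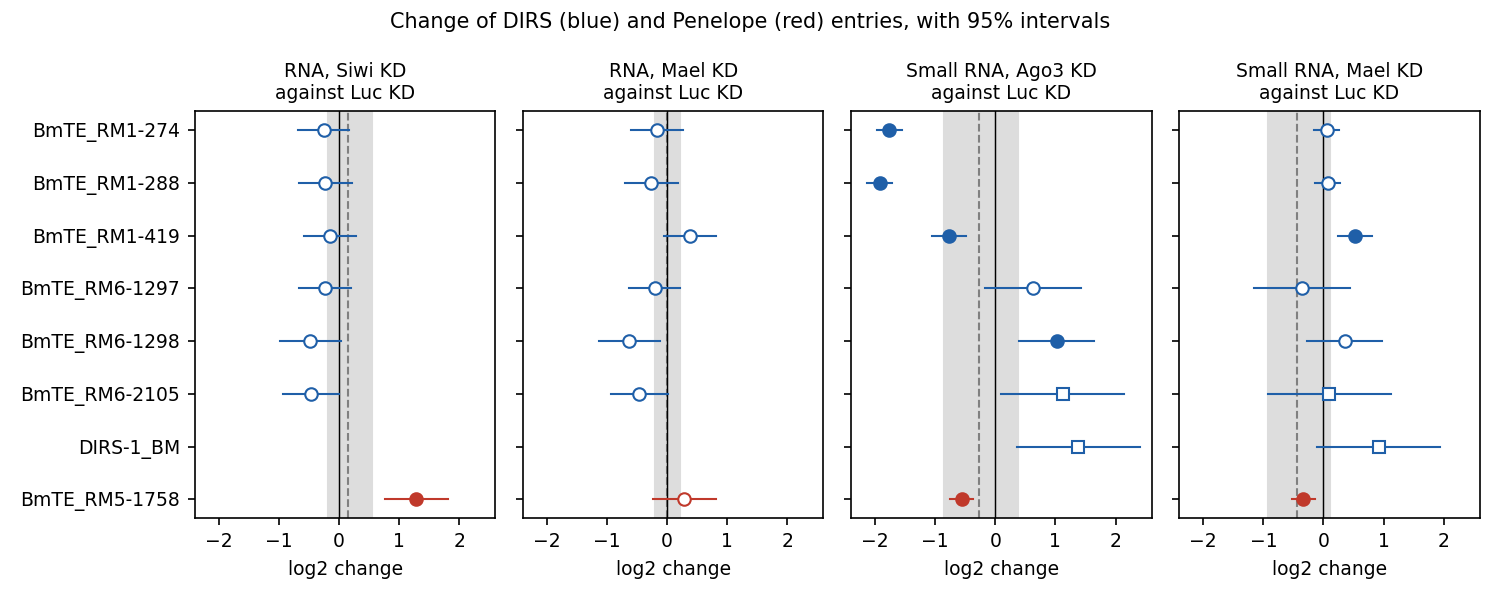
Log2 change with its 95% interval (limma, log2(value + 1)) of each tested DIRS (blue) and Penelope (red) entry in the 4 comparisons with LucKD cells; filled circles passed the test, open circles did not, squares are the 2 entries that reached 1 RPM only through knockdown values and are shown as a description, the grey band spans the first to the third quartile of all tested entries and the dashed line is their median. In RNA, BmTE_RM5-1758 after Siwi knockdown (1.29) is the filled circle, and in small RNA after Ago3 knockdown the BmTE_RM1 entries lie left of 0 and the BmTE_RM6 entries and DIRS-1_BM right of it.

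The direct test of Mael against Ago3 knockdown in small RNA passed for 5 of the same 6 entries, beside 52.4% of 1004 entries, 20.7% as higher and 31.7% as lower (51.0% by edgeR). The 5 include BmTE_RM1-274 and BmTE_RM1-288, which may share reads. With trimmed-mean scaling, which moved the median of all entries to -0.13 from -0.34, 258 passed as higher and 213 as lower, in place of 208 and 318. BmTE_RM1-274 had 366 and 372 RPM after Mael knockdown and 112 and 96.9 RPM after Ago3 knockdown (log2 difference 1.82 ± 0.10, limma, adjusted p = 5.93e-19). BmTE_RM1-288 differed by 1.99 ± 0.10 and BmTE_RM1-419 by 1.29 ± 0.14 in the same direction. These 3 differences passed in all 12 alternatives. BmTE_RM5-1758 was slightly higher after Mael knockdown, with 619 and 599.7 RPM against 502 and 541 RPM (0.23 ± 0.09, adjusted p = 0.0406), and BmTE_RM6-1297 was lower, with 1.98 and 2.71 RPM against 4.21 and 7.35 RPM (-0.99 ± 0.40, adjusted p = 0.0345). The last 2 calls are weak: that of BmTE_RM5-1758 was lost in 6 of 12 alternatives and that of BmTE_RM6-1297 in 5 of 11. BmTE_RM6-1298 had 10.9 and 8.68 RPM after Mael knockdown and 11.9 and 21.6 RPM after Ago3 knockdown and did not pass (-0.67 ± 0.31, adjusted p = 0.0654).

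Across both assays, the entry whose RNA rose after Siwi knockdown was also the one with the most Siwi-bound small RNA in control cells. BmTE_RM5-1758 had 950 RPM per kb and a log2 RNA change of 1.29. The 3 BmTE_RM1 entries, with 120 to 128 RPM per kb, had RNA changes of -0.26, -0.23 and -0.15, and the 3 BmTE_RM6 entries, with 0.397 to 8.98 RPM per kb, had -0.23, -0.48 and -0.47. These are 7 entries of 1 cell line, and no test was made of this order.

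The entries nearest in pattern were found from the root mean square difference between log2(value + 1) profiles, each centred on its own mean over 6 libraries. For the RNA of BmTE_RM5-1758 they were the unclassified BmTE_RM1-651 (0.13), the Gypsy entry BmTE_RM6-4418 (0.18) and the unclassified BmTE_RM6-1138 (0.22), against a median of 0.62 over all tested entries. For the RNA of BmTE_RM1-274 they were the unclassified BmTE_RM6-2153 (0.05) and the DIRS entries BmTE_RM1-288 (0.06) and BmTE_RM6-1297 (0.07), against a median of 0.30. In small RNA, BmTE_RM1-274 was closest to BmTE_RM1-288 (0.09), then to the LINE elements I-2_BM and L1Bm (0.11 each), against a median of 0.96. BmTE_RM5-1758 was closest to the unclassified BmTE_RM1-212 (0.09), the TcMar-Tc1 DNA transposon BmTE_RM6-710 (0.10) and the unclassified Chochin (0.11), against a median of 0.49.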

How the data were processed

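Flag-Siwi was precipitated, its small RNA of 22 to 35 nt was cut out and read for 51 nt, and RNA libraries were stranded, poly-A selected and read in pairs, per the labels' protocols. The authors deposited RPKM for RNA and RPM for small RNA. The submitters' processing notes name STAR 2.7.9a, Trim Galore, bedtools, SAMtools, Bowtie 1.3.0 and cutadapt 3.1. What each did, the genome build, and how strand and multiply matching reads were treated is not given in the sources used here. Titles gave the groups.

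RPM values divided by the worth of 1 read gave whole reads in 100% of cases (tolerance 0.001 reads). RPKM gave whole reads for 978 of 978 entries listed above 0, at that tolerance, in a search for whole library totals and entry lengths from 20 to 30000 bp, with the totals held to those that make reads whole at both lengths stated in entry names (6926 and 7603 bp). A length found this way is the shortest that gives whole reads.

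Values were tested as log2(value + 1) with limma 3.58.1 in R 4.3.3 (lmFit, eBayes with a trend, two-sided, all 6 libraries of a table in 1 fit) over entries with a mean of at least 1: 490 in RNA and 1004 in small RNA. The procedure was run on simulated data with a fixed spread and depth. These were not fitted to the libraries here, so the run does not give the error rates of these tests. Alternatives were a pseudocount of 0.1, no filter, a mean of at least 10, trimmed-mean scaling, a replicate block, leaving out each library, and edgeR 4.0.16 (quasi-likelihood) on the recovered reads, of which the RNA version was added after the data were seen. Libraries of a group were not duplicates: the chi-square per entry between them was 37.5 to 51.7 for RNA and 3.69 to 6.35 for small RNA. The named entries are all 10 members, plus the 3 nearest profiles of the most abundant entry of each class in each table. Members and lists were chosen with earlier results of these data known.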

Additional observations from a re-analysis of the deposited data

How the results depend on the processing

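Of 510 refitted log2 changes of the tested DIRS and Penelope entries, 449 kept direction and side of the threshold. Another 23 changed sign, counted here whether or not a call was lost as well. Among those that kept direction, 21 lost a call and 17 gained one, and the cause was not tested. Some refits could not move the estimate, so their direction was fixed in advance. A changed filter, the replicate block or a library left out of the group not compared leaves the estimate as it was. Such a refit alters the standard error, the interval and the p-values. The counts of calls here take in BmTE_RM6-2105 and DIRS-1_BM, whose small RNA was tested only through their knockdown values. With no filter on low values the number called was 0 for Siwi against Luc in RNA (1 in the fit reported). It was 0 for Mael against Siwi in RNA (1) and 3 for Mael against Ago3 in small RNA (5). Calls fell over the whole table too. For Siwi against Luc 72 of 978 entries passed as higher and 2 as lower, in place of 119 and 15 of 490. For Mael against Siwi these numbers were 1 and 29, in place of 8 and 92. For Mael against Ago3 they were 198 and 302 of 1465, in place of 208 and 318 of 1004. With trimmed-mean scaling the number called among the DIRS and Penelope entries was 2 for Siwi against Luc in RNA. It was 0 for Mael against Siwi in RNA and 4 for Mael against Luc in small RNA (2). Over all 484 entries so tested for Mael against Siwi, 9 passed as higher and 46 as lower. With a pseudocount of 0.1 the number called was 3 for Mael against Ago3 in small RNA, beside 205 higher and 307 lower over all 1004 entries. Calls moved with the library left out as well, both among the DIRS and Penelope entries and over the whole table. Counts of calls from those fits are not given, because 1 group then holds 1 library. No DIRS or Penelope entry reached a mean of 10 RPKM, so that filter gave no RNA value.

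With trimmed-mean scaling the log2 change after Mael against Luc in small RNA was 0.18 for BmTE_RM5-1758, a called change of -0.33 in the fit reported, and 0.021 for BmTE_RM6-1297 (-0.36), and that of Mael against Siwi in RNA was 0.13 for BmTE_RM1-288 and 0.0018 for BmTE_RM6-1298. By edgeR BmTE_RM6-2105 was at -0.031 for Mael against Siwi in RNA and at -0.52 for Mael against Luc in small RNA. Leaving out 1 library gave these ranges in RNA: for Mael against Luc -0.40 to 0.057 (BmTE_RM1-274), -0.54 to 0.017 (BmTE_RM1-288) and -0.14 to 0.71 (BmTE_RM5-1758), for Siwi against Luc -0.51 to 0.048 (BmTE_RM1-288), and for Mael against Siwi -0.061 to 0.24 (BmTE_RM1-274), -0.17 to 0.11 (BmTE_RM1-288), -0.030 to 0.078 (BmTE_RM6-1297), -0.57 to 0.27 (BmTE_RM6-1298) and -0.32 to 0.34 (BmTE_RM6-2105). In small RNA they were -0.0087 to 0.12 (BmTE_RM1-274) and -0.49 to 0.68 (BmTE_RM6-2105) for Mael against Luc and -1.08 to 0.16 (DIRS-1_BM) for Mael against Ago3.

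Over all entries, replicate numbers showed little pairing of the libraries. Deviations of same-numbered libraries correlated across entries between 0.02 and 0.05 for RNA and between -0.05 and 0.04 for small RNA. Such correlations cannot exclude a pairing by design or in single entries. With the replicate number as a block, the counts called were 1, 0 and 1 in RNA (Siwi against Luc, Mael against Luc, Mael against Siwi). They were 6, 2 and 5 in small RNA (Ago3 against Luc, Mael against Luc, Mael against Ago3), the same numbers as without it. The 6 take in DIRS-1_BM, which was tested only through its knockdown values and is not counted as a rise. Over all 490 RNA entries the block gave 128 higher and 20 lower, 47 and 15, and 10 and 98, in the same order. Over all 1004 small RNA entries it gave 169 higher and 410 lower, 120 and 447, and 208 and 320.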
